A study of Mus musculus with 10 samples.

Results

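Mouse embryonic fibroblasts, cultured connective tissue cells that are a common starting material for reprogramming to pluripotency, were examined for 10 regulators of pluripotency and fetal growth. The 10 genes were taken by symbol from a deposited table of 52550 genes, and all 10 had a row. They comprise the pluripotency factors Pou5f1, Sox2 and Nanog, the reprogramming factors Klf4 and Myc, the let-7 antagonists Lin28a and Lin28b, and the mRNA binders Igf2bp1, Igf2bp2 and Igf2bp3. The 10 libraries came from male cells (5 libraries) and female cells (5 libraries) of C57BL/6 embryos at embryonic day 14, all at passage 3, untreated and with no engineered allele named in the labels. The labels give no embryo or culture of origin for a library, so p-values between the sexes rest on the spread among libraries, part of which may be technical. Each library held between 30662616 and 45859721 unique gene reads of ribosomal RNA-depleted total RNA.

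Pou5f1, which encodes OCT4, binds DNA together with SOX2, and the pair activates Nanog and many other genes of the inner cell mass and embryonic stem cells. Forced expression of OCT4, SOX2, KLF4 and MYC returns fibroblasts to a pluripotent state. KLF4 and MYC also act in many somatic cells, where both respond to serum and growth factors. LIN28 proteins bind precursors of the let-7 microRNAs and block their maturation, which relieves let-7 targets such as Hmga2 and Igf2bp1 itself. The IGF2BP proteins bind, stabilize and localize mRNAs, are abundant in the embryo, decline in most adult tissues and reappear in many tumours, hence the term oncofetal.

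The 10 genes fell into an expressed and a low group. Levels are given as RPKM, the reads on a gene's exons scaled to its exon length and to the depth of the library, because only values per length can be compared between genes. A gene was called expressed where it reached at least 1 RPKM in all 10 libraries. Klf4, Myc, Igf2bp1, Igf2bp2 and Igf2bp3 met that rule, and Pou5f1, Sox2, Nanog, Lin28a and Lin28b did not. The background level was taken from 1356 olfactory receptor genes, which fibroblasts should lack: their mean RPKM had a median of 0.00123 and a 95th percentile of 0.00875. In bulk RNA, a low level in every cell and a higher level in a few cells cannot be told apart.

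**Figure D1:**
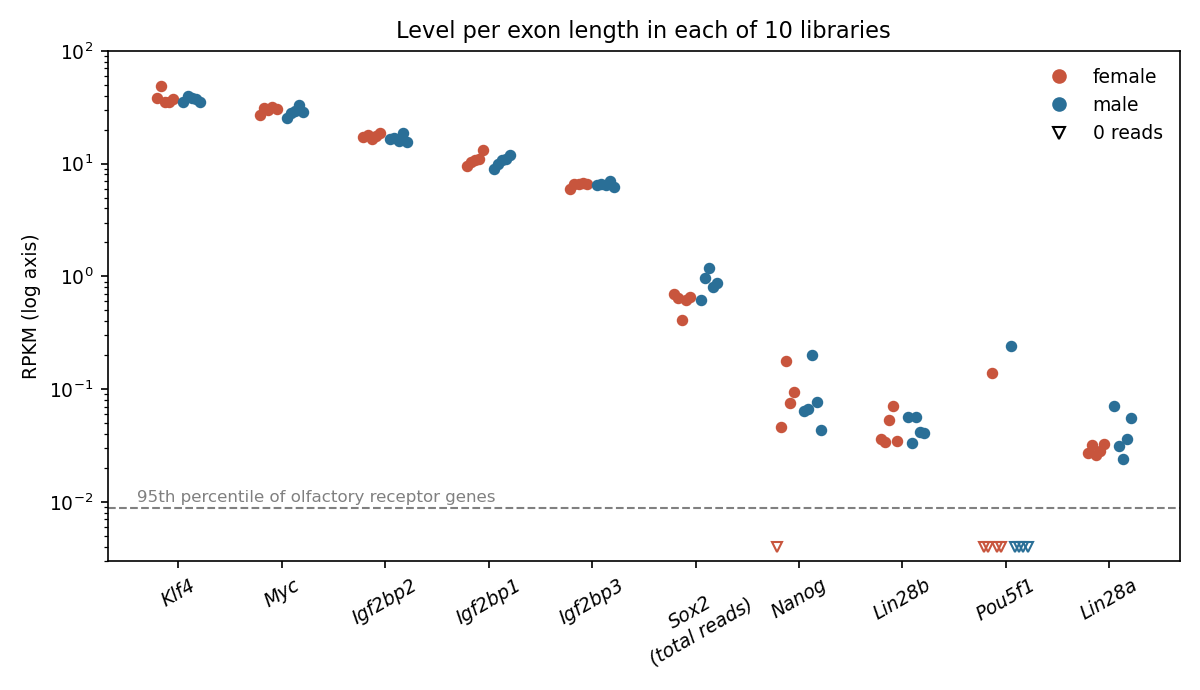
Level of each gene in each library, as RPKM on a log axis, for 5 female (red) and 5 male (blue) libraries; open triangles mark libraries with 0 reads, and the dashed line is the 95th percentile of 1356 olfactory receptor genes. Klf4, Myc and the 3 Igf2bp genes lay above 1 RPKM in every library, and the low genes other than Sox2 stayed at or below 0.240 RPKM.

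Promoter sequences of 8 of the 10 genes were matched in RefSeq (GRCm38.p6), each from 250 bases before to 50 bases after a transcription start, and 5 are printed because they span the range from expressed to low. CG dinucleotides, which are read alike on both strands, are in capitals. Klf4 (chr4:55532426-55532725, minus strand) and Igf2bp2 (chr16:22163250-22163549, minus strand) were expressed. Nanog (chr6:122707239-122707538, plus strand), Pou5f1 (chr17:35505782-35506081, plus strand) and Sox2 (chr3:34649745-34650044, plus strand) were low.
Klf4: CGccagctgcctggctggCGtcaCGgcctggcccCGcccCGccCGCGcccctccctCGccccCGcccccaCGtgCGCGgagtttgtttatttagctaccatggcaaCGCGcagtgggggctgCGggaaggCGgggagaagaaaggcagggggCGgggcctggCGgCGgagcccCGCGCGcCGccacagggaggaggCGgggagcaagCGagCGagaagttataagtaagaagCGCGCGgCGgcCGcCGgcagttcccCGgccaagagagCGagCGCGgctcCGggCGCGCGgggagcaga
Igf2bp2: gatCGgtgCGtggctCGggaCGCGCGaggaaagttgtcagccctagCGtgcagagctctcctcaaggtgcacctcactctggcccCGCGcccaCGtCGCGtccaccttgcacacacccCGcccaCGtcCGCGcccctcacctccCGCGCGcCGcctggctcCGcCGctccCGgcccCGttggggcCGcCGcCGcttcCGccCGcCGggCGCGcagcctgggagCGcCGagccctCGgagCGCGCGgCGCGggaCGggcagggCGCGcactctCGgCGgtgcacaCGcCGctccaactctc
Nanog: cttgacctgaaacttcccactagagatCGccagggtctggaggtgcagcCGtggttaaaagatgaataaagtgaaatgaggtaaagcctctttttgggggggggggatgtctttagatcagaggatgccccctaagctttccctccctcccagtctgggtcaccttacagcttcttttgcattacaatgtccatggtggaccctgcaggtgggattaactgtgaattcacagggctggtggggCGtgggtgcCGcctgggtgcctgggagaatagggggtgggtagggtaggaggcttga
Pou5f1: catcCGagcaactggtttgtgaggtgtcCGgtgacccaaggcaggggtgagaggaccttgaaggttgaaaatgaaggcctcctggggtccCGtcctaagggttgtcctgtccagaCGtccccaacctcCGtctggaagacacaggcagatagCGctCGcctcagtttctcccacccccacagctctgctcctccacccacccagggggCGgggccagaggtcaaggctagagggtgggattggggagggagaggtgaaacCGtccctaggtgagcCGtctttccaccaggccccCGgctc
Sox2: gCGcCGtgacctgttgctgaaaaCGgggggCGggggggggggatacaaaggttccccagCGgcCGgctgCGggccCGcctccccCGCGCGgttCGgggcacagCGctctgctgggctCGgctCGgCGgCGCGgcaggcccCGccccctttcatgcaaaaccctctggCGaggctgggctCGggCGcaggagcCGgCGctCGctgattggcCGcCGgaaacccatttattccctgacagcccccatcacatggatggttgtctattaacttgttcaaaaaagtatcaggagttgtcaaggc

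The Igf2bp2 promoter held 47 CG dinucleotides and the Klf4 promoter 40, against a median of 7 over 32851 promoters of the same length. Igf2bp3, also expressed, had 25. The low genes Nanog, Lin28b and Lin28a had 4, 8 and 10, and the upstream Pou5f1 start had 11. Sox2 departed from that order: its promoter held 27 CG dinucleotides, more than that of the expressed Igf2bp3. Across the protein-coding genes of the table with a RefSeq promoter, 75% of 4575 genes with at least 25 CG dinucleotides were expressed at 1 RPKM in all libraries, as were 65.4% of 4839 genes with fewer than 25 but more than 11, and 11.8% of 6868 genes with 11 or fewer. Those limits were chosen after the values of the 10 genes were seen, and the counts describe genes rather than independent replicates. The motif TATAAA, searched on both strands, was in none of the 10 windows of these 8 genes and in 13.6% of all promoters. For Sox2 and Lin28b the start used in the deposited table lies outside the RefSeq window, so the printed Sox2 window lies wholly before the Sox2 row. The Lin28b window (chr10:45470152-45470451, minus strand) lies inside the Lin28b row, downstream of that row's start at 45486395. Its 8 CG dinucleotides are thus not those at the start of the measured row. The printed Klf4 and Pou5f1 windows also rest on a start that differs from that of the table, though the table's start lies within them.

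Klf4 (ENSMUSG00000003032, chr4:55527143-55532466, minus strand, mm10) was the most abundant of the 10 genes. It encodes a zinc finger transcription factor that restrains proliferation in many epithelia and helps to maintain naive pluripotency. Its level was 35.1, 39.5, 38.4, 37.5 and 35.1 RPKM in male libraries 1 to 5 and 38.2, 48.8, 35, 35.4 and 37.2 RPKM in female libraries 1 to 5. Female library 2 stood above the other 9 libraries, which lay close together, and the sexes overlapped. The mean was 38.0 ± 4.11 RPKM (SD, n = 10), above that of 95.2% of the 16602 genes that passed the filter on low counts, whose median was 2.15 RPKM.

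Myc (ENSMUSG00000022346, chr15:61985391-61990374, plus strand) came next in the order of levels. It encodes a helix-loop-helix factor that drives ribosome production, metabolism and cell cycle entry. Male libraries held 25.6, 27.8, 29.1, 32.9 and 28.8 RPKM, and female libraries held 26.7, 30.9, 29.6, 31.4 and 30.3 RPKM. The lowest and the highest library were both male, so the female range lay wholly inside the male range. The mean of 29.3 ± 2.21 RPKM (SD, n = 10) was below Klf4 in 10 of 10 libraries, with no overlap between the ranges of the 2 genes.

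The 3 Igf2bp genes were all expressed, and in a fixed order. Igf2bp2 (ENSMUSG00000033581, chr16:22059009-22163299, minus strand), the family member most often kept in adult tissues, where it acts in metabolism, stood highest. Its male libraries were at 16.6, 17.0, 15.7, 18.6 and 15.6 RPKM and its female libraries at 17.1, 17.9, 16.5, 17.7 and 18.8 RPKM. Igf2bp1 (ENSMUSG00000013415, chr11:95957163-96005940, minus strand), the binder first described for its hold on beta-actin and Myc mRNA, was lower. Male libraries held 8.99, 9.86, 10.7, 11 and 11.8 RPKM of Igf2bp1, and female libraries 9.50, 10.3, 10.8, 11.1 and 13.1 RPKM. Igf2bp3 (ENSMUSG00000029814, chr6:49085223-49214957, minus strand), the paralog most restricted to fetal tissue and tumours, was the lowest of the 3. It was at 6.43, 6.62, 6.42, 6.94 and 6.15 RPKM in males and at 5.91, 6.59, 6.53, 6.78 and 6.60 RPKM in females.

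The means were 17.2 ± 1.10 RPKM for Igf2bp2, 10.7 ± 1.19 for Igf2bp1 and 6.50 ± 0.294 for Igf2bp3 (SD, n = 10). Each was above the next in 10 of 10 libraries with no overlap of ranges, and the ratio of Igf2bp2 to Igf2bp3 stayed between 2.45 and 2.90 across libraries. These levels lay above 87.7%, 80.5% and 70.9% of tested genes. Reads on the 3' part of Igf2bp3 were less certain than the others: 1529 bases of its span overlap Malsu1, a gene on the other strand, and 79.7% of its total exon reads were counted as unique. From total exon reads its mean was 8.15 ± 0.354 RPKM (SD, n = 10), still below both paralogs.

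Among the pluripotency factors, Sox2 (ENSMUSG00000074637, chr3:34650405-34652461, plus strand) was the highest, at a level that depended on how overlapping reads were counted. It encodes an HMG box factor of pluripotent and neural stem cells. All 2057 bases of this single-exon gene lie inside Sox2ot, a long non-coding transcript on the same strand. Only 4 of its 574 total exon reads, or 0.697%, were listed as unique, 2 in female library 3 and 2 in female library 5. The total reads were 45, 79, 77, 57 and 74 in male libraries and 53, 52, 40, 45 and 52 in female libraries, so every library held some.

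Other nested genes also had few unique reads, though Sox2 had a smaller share than most. Over 228 genes lying inside a gene on the same strand, with at least 100 total exon reads, the median share of unique reads was 10.1%. Their lower quartile was 1.27%, above the 0.697% of Sox2. Over 394 genes inside a gene on the other strand only the median was 18.7%, and over 6286 genes overlapping no other gene it was 99.97%. Sox2ot itself had 1284 total gene reads, of which 1085 were unique. The cause of the low unique share of Sox2 was not tested. Because unique reads leave out most reads over nested genes in this table, Sox2 is described here by total exon reads, a choice made after the data were seen. Its mean was then 0.750 ± 0.221 RPKM (SD, n = 10), with males at 0.622, 0.963, 1.20, 0.802 and 0.882 RPKM and females at 0.698, 0.649, 0.409, 0.614 and 0.662 RPKM. Male library 3 alone exceeded 1 RPKM, and female library 3 was the lowest. Reads of Sox2 and Sox2ot cannot be told apart over the shared bases. Over the 10 libraries, the Sox2 span held 279 total reads per kilobase and the part of Sox2ot outside its own exons held 2.185.

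Nanog (ENSMUSG00000012396, chr6:122707489-122714633, plus strand), a homeodomain factor of the naive pluripotent state, had 8, 6, 18, 8 and 6 unique gene reads in male libraries and 0, 4, 21, 6 and 8 in female libraries. Male library 3 and female library 3 held the most and female library 1 none. Of its 72 unique exon reads, 9 crossed an exon junction, spread over 4 libraries. The mean was 0.0844 ± 0.0609 RPKM (SD, n = 10), above 99.4% of the olfactory receptor genes. Sox2 was above Nanog in 10 of 10 libraries with total exon reads for both, and below it in 9 of 10 with unique exon reads for both. Klf4 averaged 450 times the Nanog level, with a range of 192 to 1065 over the 9 libraries with a Nanog exon read.

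Pou5f1 (ENSMUSG00000024406, chr17:35506018-35510772, plus strand), a central member of most reprogramming cocktails, was concentrated in 2 libraries. Male library 1 held 19 unique gene reads and female library 3 held 15, against 1 read in each of female libraries 2 and 5 and 0 in the other 6. The 34 reads of male library 1 and female library 3 were all exonic, and 6 and 4 of them crossed an exon junction. The other 8 libraries had no unique exon read, which allows a level of up to 0.00451 RPKM over those libraries, taken as 3 reads. That limit allows for counting error alone, because the reads carry no molecular identifiers and several may stem from 1 molecule. It holds for unique reads alone: those 8 libraries had 14 total exon reads, a mean of 0.0210 RPKM, which is above that limit.

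Total gene reads of Pou5f1 showed the same 2 libraries apart, with 37 in male library 1 and 35 in female library 3 against 0 to 5 in each of the others. Of the 83 total exon reads, 41.0% were unique. Gm19553, a gene model on the other strand, overlaps 31% of the span but had only 4 total gene reads, with 0 unique. The source of the Pou5f1 reads that were not unique was not tested. Across all 10 libraries the Pou5f1 mean was 0.0381 ± 0.0836 RPKM (SD, n = 10), so the spread exceeded the mean. Markers of primordial germ cells, fetal cells that also use Pou5f1, were low in all libraries: 0 of 14 were expressed at 1 RPKM, and Dppa3 and Mael had no exon read. Their summed level ranged from 1.14 to 1.87 RPKM in females and from 1.16 to 1.75 RPKM in males, most of it from Stra8 (0.719 RPKM) and Prdm1 (0.477 RPKM). The other 12 germ cell markers summed to 0.135 RPKM in male library 1, the lowest library, and 0.265 in female library 3. Their highest library was at 0.508. Stra8 and Prdm1 were left out of that sum after their levels were seen. The sum rests on few reads, such as 3 of Ddx4 in male library 1. A germ cell source of the Pou5f1 reads was not tested. Of the 26 further genes of the pluripotency network, the 23 other than Klf2, Klf5 and Tbx3 summed to 0.945 RPKM in male library 1 and 0.773 in female library 3, within a range of 0.773 to 1.47. Male library 1 and female library 3 also had the highest shares of intron reads, 28.1% and 28.6% of unique gene reads, against 22.5% to 27.1% in the others, and the part of that share in the Pou5f1 reads was not tested.

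**Figure D2:**
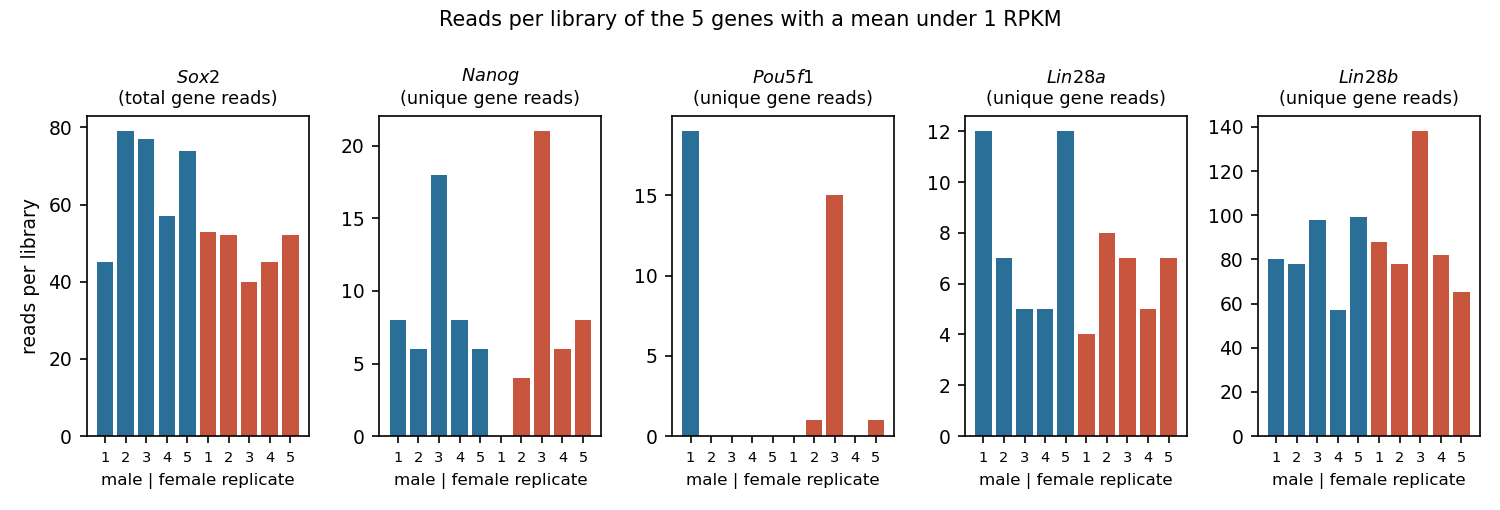
Reads per library (vertical axes, each on its own scale) of the 5 genes with a mean under 1 RPKM, in male (blue) and female (red) replicates 1 to 5. Sox2 is drawn from total gene reads and the others from unique gene reads; Pou5f1 reads lay almost wholly in male library 1 (19) and female library 3 (15), and Nanog was highest in male library 3 (18) and female library 3 (21).

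Both Lin28 genes were low, and they differed in the share of their reads that lay in introns. Lin28a (ENSMUSG00000050966, chr4:134003330-134018841, minus strand), whose product recruits terminal uridylyltransferases to let-7 precursors, had 12, 7, 5, 5 and 12 unique gene reads in males and 4, 8, 7, 5 and 7 in females. All libraries held a few reads and none stood far apart. None of the 55 unique exon reads of Lin28a crossed an exon junction, which allows a junction share of up to 5.45% on a count of 3. Over the tested genes the median junction share was 21.8% of exon reads. That share differs widely between genes: among the expressed studied genes it ran from 6.77% for Myc and 11.2% for Klf4 to 33.0% for Igf2bp3. Whether Lin28a lacked spliced RNA was not tested.

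Lin28b (ENSMUSG00000063804, chr10:45376620-45486395, minus strand), the paralog most often reactivated in tumours, had more reads, with 80, 78, 98, 57 and 99 unique gene reads in males and 88, 78, 138, 82 and 65 in females. Of these 863 reads, 81.9% were intronic, against 23.1% at the median tested gene. Lin28a had 23.6% intron reads, on 17 reads, with libraries from 0% to 40%. This share depends on intron length, and Lin28b has 100711 intron bases where Lin28a has 11516. Per base, exons of Lin28b held 2.45 times the read density of its introns, and those of Lin28a 9.32 times. The median over 15029 tested genes was 18.2, and 13.9% of genes had a lower ratio than Lin28b. Only 5 of the 156 unique exon reads of Lin28b crossed a junction, in 3 libraries.

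Per exon length, Lin28b averaged 0.0457 ± 0.0129 RPKM and Lin28a 0.0364 ± 0.0150 RPKM (SD, n = 10). The ranges of Nanog, Lin28b, Pou5f1 and Lin28a overlapped each other, so their ranges do not separate these 4. Within libraries, Nanog was above Lin28b in 9 of 10 and Lin28b above Pou5f1 in 8 of 10, while Pou5f1 was above Lin28a in 2. Igf2bp2 averaged 375 times the level of Lin28b, with a range of 249 to 542 across libraries. Igf2bp3, the lowest expressed gene, averaged 8.67 times the level of Sox2, with a range of 5.36 to 16.0. That last ratio sets unique exon reads of Igf2bp3 against total exon reads of Sox2. On the olfactory receptor scale, the means of Lin28a, Pou5f1 and Lin28b lay above 98.4%, 98.5% and 98.7% of the receptor genes. With the 99th percentile of 0.0562 RPKM as the limit, Nanog would stay above background and Pou5f1, Lin28a and Lin28b would not.

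The expressed genes differed in the share of their reads that lay in introns, which depends on intron length. Introns took 1.63% of the unique gene reads of Klf4 and 4.68% of those of Myc, both short genes. Igf2bp1 had 17.6% intron reads, Igf2bp3 49.9% and Igf2bp2 62%, with library ranges of 12.7% to 24%, 38.8% to 56.2% and 56.3% to 65.1%. Per base, exons of Klf4 held 45.0 times the read density of its introns, those of Igf2bp1 18.9, of Myc 17 and of Igf2bp3 15 times. Igf2bp2 had the lowest exon to intron density among the 5, at 8.35, so on this measure Myc no longer stood apart from Igf2bp1 and Igf2bp3. Junction reads were 11.2% of exon reads for Klf4, 6.77% for Myc, 19.8% for Igf2bp1, 29.1% for Igf2bp2 and 33.0% for Igf2bp3. Every expressed gene had junction reads in 10 of 10 libraries, whereas Pou5f1 had them in 2, Nanog in 4 and Lin28b in 3.

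**Figure D3:**
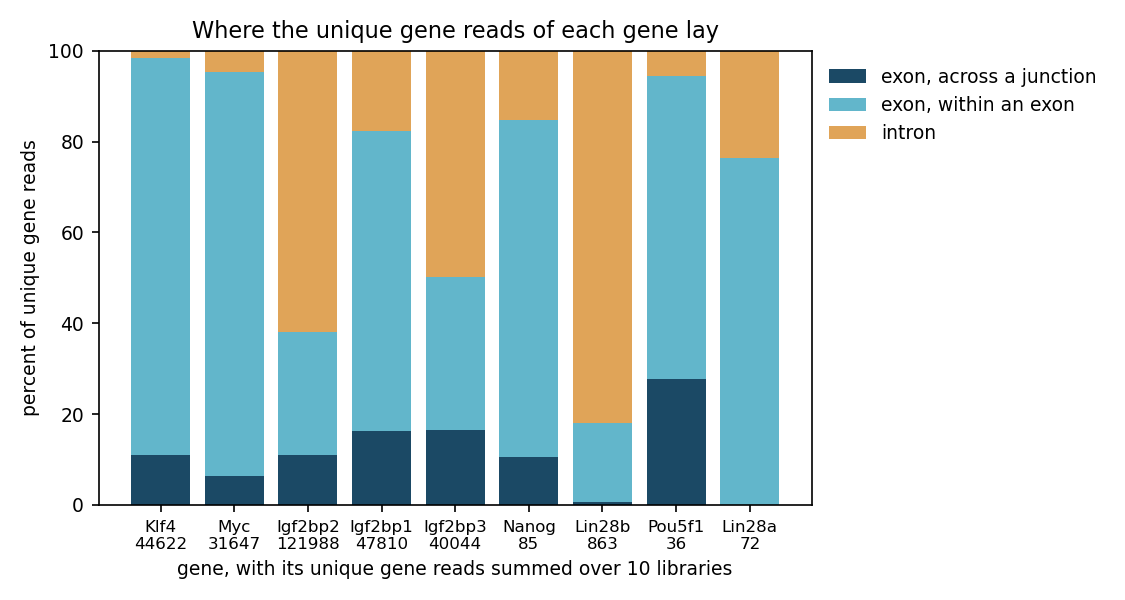
Percent of each gene's unique gene reads, summed over 10 libraries, that lay in introns (orange), within exons (light blue) or across exon junctions (dark blue); the number under each name is the read total. Lin28b was 81.9% intronic and Klf4 1.63%; Sox2 is left out because it has 1 exon and 4 unique reads.

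The expressed genes varied between libraries by less than the median tested gene, though not by much for Klf4. The share of tested genes that varied less ran from 23.1% for Igf2bp2 to 42.9% for Klf4. The coefficient of variation of CPM (unique gene reads scaled to library depth) over 10 libraries was 10.7% for Klf4, 7.33% for Myc, 9.82% for Igf2bp1, 7.31% for Igf2bp2 and 9.27% for Igf2bp3, and the median over tested genes was 12.5%. Lin28b, at a mean of 2.27 CPM, varied by 21.1%. By a fixed rule, the 2 genes most like each in log2 CPM across the 10 libraries were sought among 12453 genes. Igf2bp1 was followed by Pola2 (Pearson r = 0.986) and Mybl2 (0.977), a DNA polymerase subunit and a cell cycle transcription factor. Igf2bp3 was followed by Fars2 (0.966) and Rbms1 (0.966), Igf2bp2 by Med15 (0.942) and P4htm (0.929), and Klf4 by Mkrn1 (0.922) and Aph1a (0.909). For Myc these were Akip1 (0.936) and Pcdh18 (0.935), and for Lin28b Atp11b (0.935) and Bcap29 (0.922). These are the highest of many values over 10 shared libraries and are given as a description.

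No difference between the sexes passed the test for any of the 10 genes. With edgeR's quasi-likelihood test on unique gene reads, 15 of 16602 genes were called at an adjusted p under 0.05, or 0.0904%, with 7 (0.0422%) higher in females and 8 (0.0482%) higher in males. By that rule 0 of the 6 studied genes that passed the filter on low counts were called. None of the 6 had an unadjusted p under 0.05, where 5.55% of all tested genes had one, and DESeq2 and limma-voom also called 0. Pou5f1, Sox2, Nanog and Lin28a did not pass the filter, and a fit without it, which tested all 10, called 0 of them. The log2 fold change, female minus male, was 0.07 ± 0.08 (SE) for Klf4, with a 95% interval of -0.11 to 0.24. Myc was at 0.04 ± 0.07 (-0.10 to 0.19), Igf2bp1 at 0.07 ± 0.08 (-0.10 to 0.23) and Igf2bp3 at 0.04 ± 0.08 (-0.13 to 0.20). Igf2bp2 was at 0.11 ± 0.06 (-0.02 to 0.24), with an adjusted p of 0.961 in the edgeR fit. Lin28b, at -0.01 ± 0.19, had a wide interval of -0.42 to 0.40. At this spread, a level more than 1.18-fold higher in females lay outside the 95% interval for Klf4 and Igf2bp2, while for Lin28b a difference of up to 1.32-fold higher in females lay within it. Values of the sexes overlapped for all 10 genes, and in CPM they did not overlap for 162 of all tested genes, or 0.976%.

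Sox2 passed the filter only on total gene reads, where edgeR's fit over 17932 genes called 16, or 0.0892%, with 7 (0.039%) higher in females and 9 (0.0502%) higher in males. Its log2 fold change was -0.56 ± 0.21 (SE, 95% interval -1.01 to -0.11), lower in females. The unadjusted p was 0.0177 and the adjusted p 0.745 in that edgeR fit, so Sox2 was not called. Unique gene reads of Sox2 went the other way, with 4 in females and 0 in males. On those 4 reads, edgeR without a filter gave an unadjusted p of 0.048. The authors' deposited table gave Sox2 a signed fold of -1.48, a p-value of 0.00713 and a false discovery rate of 0.813. Female libraries averaged 0.606 ± 0.114 RPKM of Sox2 and male libraries 0.893 ± 0.212 (SD, n = 5), and male library 1 lay within the female range.

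**Figure D4:**
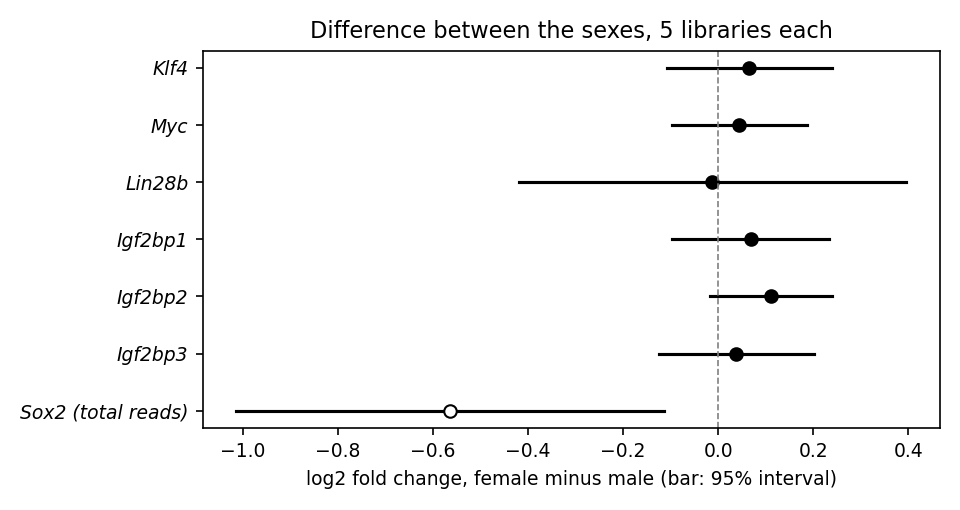
Log2 fold change between the sexes, female minus male, for the 6 genes tested on unique gene reads (filled) and Sox2 on total gene reads (open); bars are 95% intervals. The bars of the 6 filled points cross 0, and Sox2 at -0.56 did not pass the adjusted threshold.

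Most other genes of the pluripotency network were low as well. Levels of related genes and the choice of those named are from unique exon reads, unlike the level of Sox2, and total exon reads are given where they change a count of expressed genes. Total exon reads also changed which genes led some lists, such as Npm1 in place of Ccnd2 among known MYC targets. The median tested gene averaged 2.15 RPKM, so a mean above 1 RPKM was common among tested genes. Counts of expressed genes in a list are therefore not read as activity of its regulators. Of 26 further genes, 3 were expressed at 1 RPKM in all libraries: the zinc finger genes Klf5 (10.6 ± 1.79 RPKM) and Klf2 (10.6 ± 1.64) and the T-box gene Tbx3 (5.32 ± 0.494; SD, n = 10). Tfcp2l1 and Otx2, transcription factors of naive and primed pluripotency, were at 0.0761 and 0.00582 RPKM. Zfp42, Dppa3 and Tdh, classical stem cell genes, had no exon read in any library. Of 11 network genes tested between the sexes, 0 were called, at a median log2 fold change of -0.05 beside 0.005 over all tested genes.

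Few relatives of Sox2 and Pou5f1 were expressed, and more of those of Klf4. In the SOX and POU families, 4 of 32 genes were expressed (5 from total exon reads, with Pou2f1 added, which went from 0.320 to 1.22 RPKM), among them Sox4 (25.6 RPKM), Sox9 (9.49 RPKM, a chondrocyte and gonad regulator) and Sox11 (4.65 RPKM). Sox6 showed a log2 fold change of -0.71 ± 0.17 (SE) with an edgeR adjusted p of 0.359, and Pou3f1, at 0.803 RPKM, one of 0.52 with an adjusted p of 0.920. Of 25 other KLF and SP genes, 12 were expressed (13 from total exon reads, with Sp2 added), led by Klf6 at 59.1, Klf13 at 19.5 and Klf16 at 13.3 RPKM. Klf6, a serum-responsive relative, was thus above Klf4. Klf10 (10.3 RPKM) and Klf8 (0.858 RPKM) had the smallest unadjusted p-values of that family, and neither was called.

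The mean level of Myc was above that of every other gene of its own network. Of 18 partners and antagonists, 15 were expressed, led by the helicase-like cofactor Ruvbl2 (22.5 RPKM), the obligate partner Max (20.1 RPKM) and the scaffold Trrap (17.0 RPKM). The paralog Mycn averaged 0.558 RPKM, and Zbtb17, which MYC uses to repress genes, 4.73 RPKM. Known MYC targets were expressed in 25 of 26 cases, with Ccnd2 at 179, Ldha at 133 and Npm1 at 106 RPKM, and Nolc1 and Rcl1 at 27.1 and 11.5 RPKM. The part of MYC in the levels of its targets was not tested. None of the 18 network genes or 26 target genes was called between the sexes.

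Beside the low Lin28 pair, most genes of the let-7 machinery were expressed. Of 15 enzymes and cofactors of let-7 maturation and action, 12 were expressed, including Ddx3x (65.7 RPKM), the effector Ago2 (27.1 RPKM) and the exporter Xpo5 (26.2 RPKM). Trim71, an embryonic ubiquitin ligase and let-7 target, averaged 0.421 RPKM. Ddx3x, an X-linked RNA helicase known to escape X inactivation, was the only one called, at 0.31 ± 0.05 (log2, SE) higher in females with an edgeR adjusted p of 0.0153. Of 12 let-7 host rows in the table, 9 hairpin rows had no exon read, and Huwe1 (26.2 RPKM) and Wdr82 (15.4 RPKM) were expressed, with Mir99ahg at 0.110 RPKM. Mature let-7 was not analysed here, and the empty hairpin rows are not read as absence of let-7.

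Known let-7 targets were expressed in 18 of 25 cases. Hmga1, which encodes a chromatin protein, was at 64.3 RPKM from unique but 253.7 RPKM from total exon reads, the highest of the list on the latter. Ccnd2 averaged 179 RPKM, Cdkn1a 151 RPKM and Hmga2, a chromatin protein of fetal tissue, 79.6 RPKM. Hic2 (0.339 RPKM) and Ccnd1 (42.2 RPKM) had log2 fold changes of 0.29 ± 0.12 and -0.16 ± 0.07 (SE), with edgeR adjusted p of 0.816 and 0.850. Partners and target RNAs of the IGF2BP proteins were expressed in 24 of 25 cases, among them Actb at 3298, the fetal long non-coding RNA H19 at 253, Pabpc1 at 202 and the growth factor Igf2 at 177 RPKM. H19 and Igf2, neighbours in an imprinted locus, had log2 fold changes of 0.38 ± 0.11 and 0.35 ± 0.12 (SE), with edgeR adjusted p of 0.597 and 0.670, so neither was called.

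**Figure D5:**
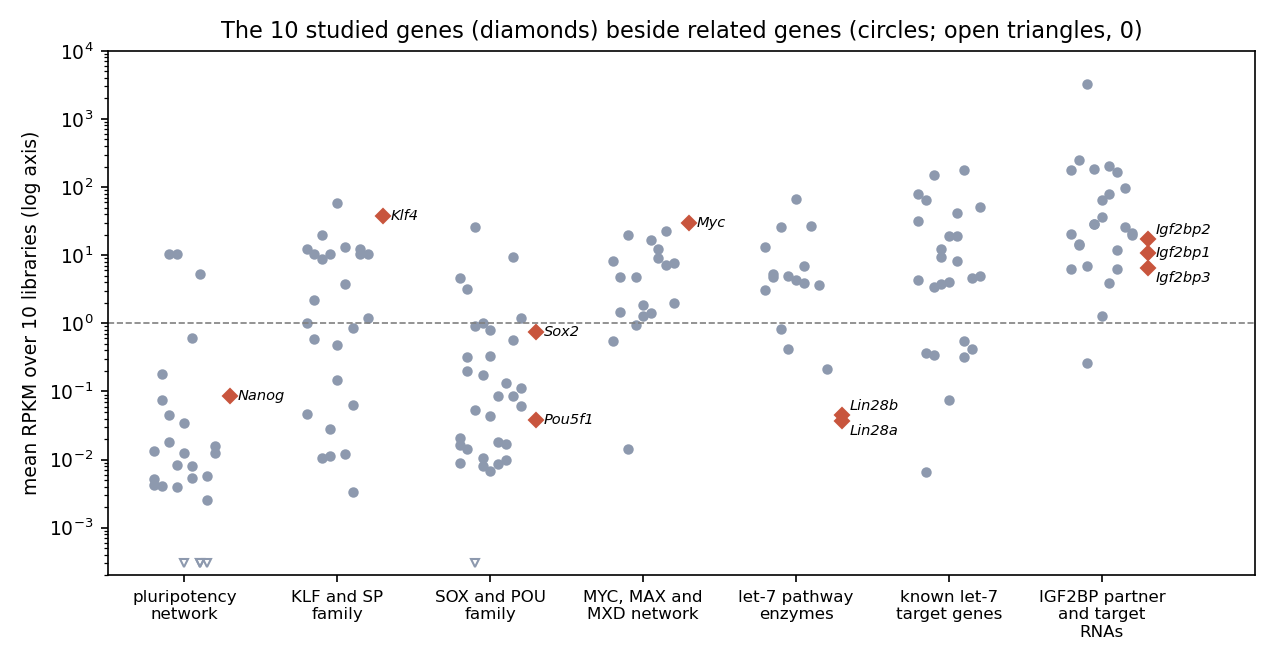
Mean RPKM over 10 libraries (log axis) of the 10 studied genes (red diamonds) beside the other genes of their families or pathways (grey circles; open triangles, listed at 0), with the dashed line at 1 RPKM. Myc (29.3) tops its network, Klf4 (38.0) is second to Klf6 (59.1), and Lin28a and Lin28b lie below every let-7 pathway enzyme.

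Known barriers to fibroblast reprogramming were expressed in 26 of 28 cases, and in 27 from total exon reads, where Sumo2 went from 0.582 to 53.5 RPKM. The cell cycle inhibitors Cdkn1a and Cdkn2b averaged 151 and 47.5 RPKM and the chromatin remodeller Chd4 51.1 RPKM. Dot1l, a histone methyltransferase, was at 8.53 RPKM and the chromatin assembly subunit Chaf1b at 2.79 RPKM, and 0 of the 28 genes were called between the sexes. The cells carried markers of the labelled type: 13 of 14 fibroblast genes were expressed, led by Vim at 2002 and Col1a1 at 1039 RPKM. Of the other marker lists, 2 of 15 neural genes (Nes at 19.3 and Tubb3 at 3.51 RPKM), 2 of 10 epithelial genes (Krt19 at 37.5 and Krt18 at 6.20 RPKM) and 2 of 8 macrophage genes (Lyz2 at 29.2 and Cd68 at 3.77 RPKM) were expressed. So were 2 of 8 endothelial genes (Flt1 at 5.01 and Kdr at 2.59 RPKM), 1 of 8 skeletal muscle genes (Des at 23.6 RPKM) and 1 of 9 gonad genes (Sox9). Next in the muscle and gonad lists were Chrna1 at 0.508 and Wnt4 at 1.43 RPKM, the latter at 0.852 in its lowest library.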

How the data were processed

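Ribosomal RNA-depleted total RNA of 10 mouse embryonic fibroblast libraries was sequenced, per the labels' protocols. The deposited gene table holds read counts in whole numbers (unique and total, on genes, exons, introns and exon junctions), RPKM values that the authors made from total exon reads, and exon lengths in bases, per the file headers. For each gene it also gives, per the file headers, the authors' p-value with its false discovery rate, and a signed fold, used here as a score. Coordinates are mm10, per the submitters' processing notes; no aligner or counting rule is named in the sources used here. There were 80 other columns of library values that were left unused.

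RPKM was recomputed from unique exon reads, exon length and the unique gene reads of each library scaled by TMM, with total exon reads for Sox2. Females were compared with males in edgeR 4.0.16 (R 4.3.3) by a two-sided robust quasi-likelihood test on sex alone, after TMM scaling and filterByExpr (minimum count 10), with Benjamini-Hochberg adjustment over 16602 genes. Alternatives were DESeq2 1.42.0, limma-voom (limma 3.58.1), other scalings, filters and read columns, the replicate number as a block, and leaving out each library. Starts were converted to count from 1, and the test was tested on simulated data. The 10 genes and the related lists were chosen with earlier results of these data known. Of each list, the text names called genes, the 3 most abundant and the 2 with the smallest unadjusted p, and of marker lists the 2 most abundant. Genes named for having no read were chosen after their values were seen.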

Additional observations from a re-analysis of the deposited data

Results flagged for a closer look

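In 5 of the 20 groups tested (10 genes, each in 5 male and 5 female libraries, by CPM or, for Sox2, by RPKM from total exon reads), 1 library stood apart from the other 4 by Dixon's criterion at the 95% level, where chance gives about 1 in 20. That rate does not hold for groups made mostly of zeros, such as both Pou5f1 groups. Pou5f1 was at 0.540 CPM in male library 1 and at 0 in the other 4 male libraries. Pou5f1 was at 0.315 CPM in female library 3, with the other female libraries between 0 and 0.0262 CPM. Nanog was at 0.576 CPM in male library 3, with the other male libraries between 0.147 and 0.231 CPM. Klf4 was at 150.5 CPM in female library 2, with the other female libraries between 108.6 and 118.6 CPM. Igf2bp2 was at 375.6 CPM in female library 5, with the other female libraries between 314.0 and 331.3 CPM.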

How the results depend on the processing

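Of the studied genes that passed each filter, 0 were called under the 19 alternatives to the sex test: 6 were tested in most, 7 with total gene reads and all 10 only without a filter. Pou5f1, Nanog and Lin28a were thus tested in that 1 alternative alone. By level, 5 were expressed under all 13 alternatives to the level rule. The log2 fold change of Lin28b ranged from -0.13 to 0.12, that of Klf4 from -0.03 to 0.10 and that of Igf2bp3 from -0.02 to 0.10, so these 3 changed sign in some settings without passing the threshold. Over all genes, 7 were higher in females and 8 in males. DESeq2 called 11 and 61, and no filter called 22 higher in males. With the replicate number as a block, 35 were higher in males. Same-numbered libraries correlated at 0.043 to 0.241, and in 2 of 5 cases they were each other's best match. The labels state no pairing, and these values do not decide whether the numbers pair samples. Leaving out 1 library gave 6 to 16 genes higher in females and 6 to 20 higher in males, the highest of both without male library 1. With the 99th percentile of olfactory receptor genes, 1 gene was low and 4 were near background, and with total exon reads none (0) was near background, where unique exon reads put Sox2 there alone. With the authors' deposited RPKM, Klf4 averaged 30.7 and Myc 23.6, and Pou5f1 (0.0784) moved above Lin28b (0.0380). Depth limits Pou5f1, Nanog and Lin28a, which rest on 36, 85 and 72 unique gene reads in all. The cause of these changes was not tested.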
